A study of Mus musculus with 6 samples.

Results

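The transcripts of 54 genes that act in G2 and mitosis were compared between control and Ybx1-KO neural progenitor cells (NPCs) of the mouse embryo. The genes were taken from a fixed list of mitotic kinases, spindle checkpoint proteins, kinesins, condensins, cytokinesis factors and their regulators, matched by symbol among the 51733 in the count tables. The list rests on known function and its rule uses no measured value, but it was drawn up with earlier results of these data known. Each of the 54 had counts in all 6 libraries, from 13 counts to 7524. For 53 of them the mean FPKM (counts per kilobase of exon, relative to all counts on genes) exceeded 1 in at least 1 group, the filter for the test. Nek2 was the exception.

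NPCs were isolated as Sox2-positive cells by flow sorting from neural tubes at E13.5, and stranded libraries of total RNA were sequenced. The 3 control libraries came from sibling embryos labelled wildtype and the 3 Ybx1-KO libraries from embryos homozygous for the Ybx1 tm1Ley null allele, all labelled C57BL/6. In both groups the sort relied on a Sox2-eGFP knock-in (Sox2 tm1Hoch), and embryos of both sexes were used. Ybx1 is lost in the whole embryo, the neural tube was not divided by region, and the number of embryos behind a library is not given in the sources used here. The question for these genes is whether NPCs without Ybx1, which encodes a DNA- and RNA-binding cold-shock protein, carry more of the transcripts of dividing cells.

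The transcripts of mitosis accumulate as cells pass from S phase into G2. Cyclin B with Cdk1 drives entry, aurora and polo kinases build the spindle, the checkpoint holds the anaphase-promoting complex (APC/C) until every chromosome is attached, and the APC/C then destroys securin and the cyclins. In the embryonic neural tube these transcripts mark the cycling progenitors of the ventricular zone, and neurons that have left the cell cycle lose them. In bulk RNA, more cells in G2 and mitosis and more transcript per cell cannot be told apart.

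The libraries were uneven, and the Ybx1-KO group was the more so. Counts on genes ran from 20841990 to 23883542 in control libraries and from 4743279 to 13321952 in Ybx1-KO libraries, so that 3 counts, taken as the least that can be shown, were worth 0.126 to 0.632 CPM, a level relative to the total but not to gene length. Ybx1-KO 3 stood apart, with 59.5% of its read pairs outside genes and 7.22% on genes. Its olfactory, vomeronasal and taste receptor genes, which NPCs do not use, carried 0.797 FPKM against 0.00394 to 0.0168 FPKM in the other libraries. That density equalled 7.04% of the FPKM of a G2 and mitosis gene in Ybx1-KO 3 at the median, 1.41% at the least and 74.2% at the most, for Nek2. Ybx1 itself was at 238, 531 and 306 CPM in control and at 126, 55.4 and 9.66 CPM in Ybx1-KO libraries, scaled with TMM factors (trimmed mean of M values), as are all CPM below.

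The promoters of these genes share sequence features that the list did not use. Of the 54 genes, 46 had an entry among the RefSeq promoters of GRCm38.p6, which run from 250 bases before to 50 bases after a gene's start. The cell cycle homology region, searched as TTTGAA or TTCGAA on both strands (TTCGAA reads the same on either), was found for 34 of 46 genes (73.9%), against 21.7% of all 27025 genes with a promoter. It is the element bound by the MuvB complex, which recruits the products of Mybl2 and Foxm1. Within 50 bases of the start it was found for 30 of 46 (65.2%) against 6.12%. The CCAAT box, bound by NF-Y, was found on either strand for 34 of 46 genes (73.9%) against 41.1%, and at least 2 such boxes for 22 (47.8%) against 13.3%. Both elements were present for 30 of 46 (65.2%) against 8.61%. The E2F element, TTTCCCGC or TTTGGCGC, was found for 2 of 46 (4.35%) against 1.8%.

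The following windows run from 70 bases before to 25 bases after the start and were picked with their values and matches known. They hold 3 genes that were higher in every Ybx1-KO library, then 2 that had lower mean levels in the Ybx1-KO group, then 2 that were higher in every Ybx1-KO library and have neither element in their promoter entry. The start used for Pttg1 lies inside the annotated gene, whose first base on the minus strand is 43426251. Bases before it were not searched, so the absence in Pttg1 holds for that entry only. Capitals mark the cell cycle homology region and the CCAAT box, or their reverse complements TTCAAA and ATTGG.
Cdc20 (chr4:118437319-118437413, minus strand): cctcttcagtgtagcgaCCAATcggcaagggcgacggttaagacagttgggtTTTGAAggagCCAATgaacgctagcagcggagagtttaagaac
Cdc25b (chr2:131186878-131186972, plus strand): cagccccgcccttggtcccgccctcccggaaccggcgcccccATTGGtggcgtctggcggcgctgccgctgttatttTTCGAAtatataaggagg
Hmmr (chr11:40733413-40733507, minus strand): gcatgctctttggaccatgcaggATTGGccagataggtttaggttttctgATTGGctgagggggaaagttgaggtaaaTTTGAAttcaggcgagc
Kif11 (chr19:37376312-37376406, plus strand): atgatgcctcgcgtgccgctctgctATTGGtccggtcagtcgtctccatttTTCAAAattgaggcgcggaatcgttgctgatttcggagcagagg
Ckap5 (chr2:91526692-91526786, plus strand): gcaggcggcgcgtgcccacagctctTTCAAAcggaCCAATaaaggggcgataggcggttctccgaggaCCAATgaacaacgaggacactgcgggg
Pttg1 (chr11:43425957-43426051, minus strand): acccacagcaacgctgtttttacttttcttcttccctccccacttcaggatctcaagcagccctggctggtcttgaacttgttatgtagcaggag
Birc5 (chr11:117849167-117849261, plus strand): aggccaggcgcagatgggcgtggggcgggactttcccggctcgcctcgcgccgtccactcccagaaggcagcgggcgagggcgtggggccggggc

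Most G2 and mitosis genes had higher mean levels in Ybx1-KO NPCs, and none of the differences passed the test. Of 53 genes tested, 40 were higher and 13 lower. Higher means were also found for 13069 of all 21326 genes tested and for 7243 of the 13693 of these that code for protein. The median log2 fold change of the 53 genes was 0.41, against 0.31 over all genes tested and 0.05 over protein-coding genes. The order against all genes tested depends on the setting. In 5 of 17 other settings the median of the G2 and mitosis genes was the lower one, at 0.30 against 0.70 with no filter, 0.33 against 0.38 without Ybx1-KO 1, 0.41 against 0.67 without Ybx1-KO 2, 0.21 against 0.47 when the latter fit used library sizes over all genes, and 0.25 against 0.31 without control 1. Against protein-coding genes, a comparison added after seeing the data, it was the higher one in all 17. The test was edgeR's quasi-likelihood test, adjusted by Benjamini-Hochberg over all genes tested, and a call needed an adjusted p under 0.05 together with a fold over 1.5. No G2 and mitosis gene was called (0 of 53), as was the case for all genes tested (0.0%), and the smallest adjusted p among them was 0.328, for Cdc20. A p above the threshold does not show that the levels were equal. Ybx1, the deleted gene, was not called either, at a log2 fold change of -2.49 (edgeR's adjusted p = 0.302). An unadjusted p under 0.05 was reached by 10 of 53, all with the higher mean in Ybx1-KO (Ccnb2, Cdc25b, Aurka, Cdc20, Pttg1, Cenpa, Birc5, Gtse1, Foxm1 and Mybl2), while 6.96% of all genes tested were higher at that level. Limma-voom called 0 of the 53 (0.0% of all genes). DESeq2 called Aurka and Cenpa, 2 of 53, where 1.29% of the 16543 genes to which it gave an adjusted p were called. With Ybx1-KO 2 left out, edgeR's test called 5 of the 53 (Aurka, Cdc20, Pttg1, Cenpa and Birc5), where 3.89% of 24342 genes were called. For 18 of the 53 genes, with log2 fold changes of at most 0.57 in size, the sign turned in at least 1 other setting (Ccna2, Ccnb1, Bub1, Ttk, Kntc1, Cenpe, Cenpf, Ndc80, Smc2, Top2a, Mki67, Ckap2, Ckap2l, Kif20a, Kif20b, Kif23, Kif4 and Racgap1), and no direction is read from them.

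For 14 of the 53 genes (26.4%), the lowest Ybx1-KO library exceeded the highest control library, against 4.99% of all genes tested. For 0 of 53 the highest Ybx1-KO library was under the lowest control, against 8.15% of all genes. The two-sided exact permutation test gave each of the 14 genes p = 0.1, the smallest that 3 libraries against 3 allow. The order depends on the scaling. With total counts 12 of the 53 genes were separated in this way, with DESeq2's size factors 19, and with all 3 scalings 10, and 0 of 53 were separated downwards under any of the 3. Nuf2, Birc5, Ncaph and Hmmr were the 4 of the 14 genes whose groups overlapped with total counts. The shares of all genes tested given above hold for TMM only. No such share stands beside the counts of 12, 19 and 10, so these are not read against all genes.

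**Figure D1:**
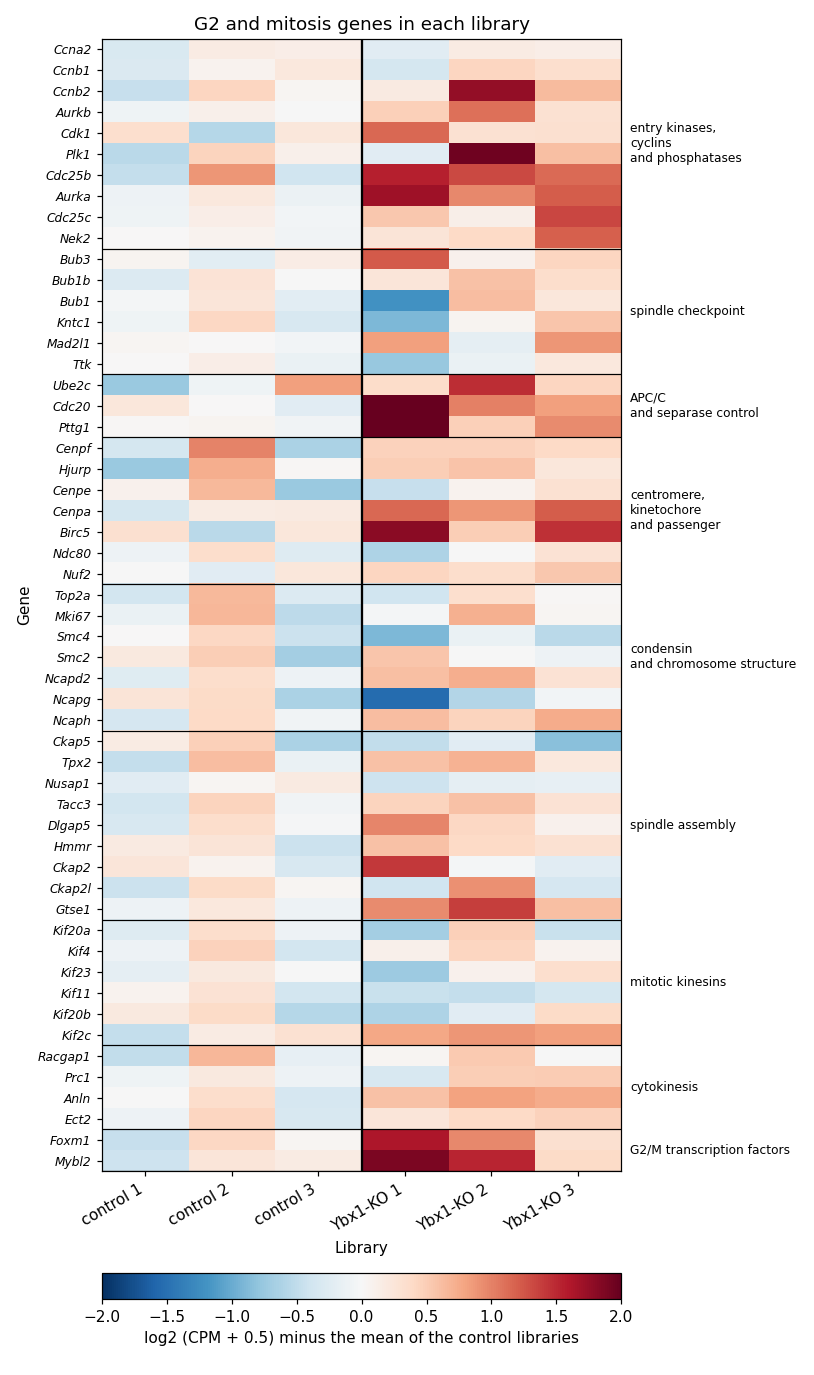
Heat map of the 54 G2 and mitosis genes (rows, grouped by role) in 6 libraries (columns), as log2 (CPM + 0.5) minus the mean of the 3 control libraries; red is above and blue below that mean. The median over the genes was -0.10, 0.32 and -0.10 in control 1 to 3 and 0.40, 0.46 and 0.33 in Ybx1-KO 1 to 3.

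Library by library, control 2 stood nearer to the Ybx1-KO libraries in level than the other controls did. A gene's highest level among the 6 libraries fell in Ybx1-KO 1 for 13 genes, in Ybx1-KO 2 for 17, in Ybx1-KO 3 for 12 and in control 2 for 11. Control 3 held the highest level of 1 gene and control 1 of 0 genes. The lowest level fell in control 1 for 20 genes, in control 3 for 14 and in Ybx1-KO 1 for 13. Ybx1-KO 1 was thus the most divided library, with 34 of 54 genes above the control mean, while 43 were above it in Ybx1-KO 2 and 44 in Ybx1-KO 3. The order of the libraries holds with TMM only. The median FPKM of the genes, relative to all counts, was 5.16, 6.56 and 4.71 in control 1 to 3. In Ybx1-KO 1 to 3 it was 8.84, 6.31 and 11.3, so Ybx1-KO 2 then lay below control 2. Across the 54 genes, Spearman correlations of CPM between libraries of a group were 0.874 to 0.909 in control and 0.676 to 0.850 in Ybx1-KO.

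The 3 regulators of the APC/C and of separase had the highest median among the 9 roles, 1.52 on the log2 scale. Cdc20, on chromosome 4 from 118432901 to 118437352 of GRCm38, encodes the activator through which the APC/C starts anaphase and is the protein the checkpoint holds in check. It was at 17.2, 14.7 and 12.4 CPM in control and at 81.4, 30.02 and 26.1 CPM in Ybx1-KO libraries. The groups did not overlap, and Ybx1-KO 1 stood far above the others. On the log2 scale the difference was 1.63, with a standard error of 0.455 (edgeR's adjusted p = 0.328), and without Ybx1-KO 1 it was 0.86. Cdc20 shares 53 bases of exon on the opposite strand with Elovl1, whose log2 fold change was 2.14, and the strand setting of the counting is not given in the sources used here.

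Pttg1, on chromosome 11 from 43420250 to 43426251, encodes securin, the inhibitor of separase that Cdc20 marks for destruction. Its 3 control libraries were within 9.60 to 10.6 CPM, and the Ybx1-KO libraries were at 53.2, 14.3 and 20.0 CPM. Here too Ybx1-KO 1 was the highest, and the groups did not overlap (log2 fold change 1.52 ± 0.484 SE, edgeR's adjusted p = 0.388). Without Ybx1-KO 1 its log2 fold change was 0.67. Ube2c, the ubiquitin-conjugating enzyme of the APC/C, had the highest mean level per kilobase of the 54 genes, with 28.9 ± 15.1 FPKM in control and 50.7 ± 10.98 FPKM in Ybx1-KO (SD, n = 3). Its CPM was 44.2, 69.6 and 131 in control and 95.0, 206 and 99.3 in Ybx1-KO libraries. Control 3 lay above Ybx1-KO 1 and 3, at a log2 fold change of 0.71 (SE 0.471).

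Among kinases, cyclins and phosphatases of mitotic entry, all 9 genes tested had higher means in Ybx1-KO, at a median of 0.78 on the log2 scale. Aurka, on chromosome 2 from 172356190 to 172370535, encodes the aurora kinase of the centrosome and spindle poles. It was at 10.7, 13.4 and 10.5 CPM in control and at 38.3, 22.7 and 27.1 CPM in Ybx1-KO libraries. The lowest Ybx1-KO library lay well above the highest control (log2 fold change 1.35 ± 0.399 SE, edgeR's adjusted p = 0.359).

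Aurkb, the aurora kinase of the chromosomal passenger complex, was at 20.1, 23.0 and 21.2 CPM in control and at 30.1, 46.5 and 26.6 CPM in Ybx1-KO libraries. The groups did not overlap, at a log2 fold change of 0.68 (SE 0.379). Cdc25b encodes the phosphatase that first switches on Cdk1 with cyclin B and is known to influence when neural progenitors divide to form neurons. It was at 8.92, 23.7 and 9.50 CPM in control and at 38.3, 32.4 and 28.4 CPM in Ybx1-KO libraries. Control 2 came near the Ybx1-KO range and the other controls did not (log2 fold change 1.24 ± 0.442 SE, edgeR's adjusted p = 0.426), and without control 2 the log2 fold change was 1.85. Cdc25b shares 92 bases of exon on the opposite strand with Spef1, whose log2 fold change was 1.22.

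Ccna2, Ccnb1 and Cdk1 had smaller differences, and Ccnb2 an uneven one. Ccna2, the cyclin A of S phase and G2, was at 85.1, 117 and 115 CPM in control and at 89.7, 118 and 115 CPM in Ybx1-KO libraries. It was among the 3 highest per kilobase, at 24.1 ± 2.81 and 28.5 ± 11.6 FPKM (SD, n = 3), and its CPM had almost the same range in both groups (log2 fold change 0.02, standard error 0.381). Ccnb2, a B-type cyclin, was at 20.7, 38.9 and 29.7 CPM in control and at 32.8, 99.0 and 44.9 CPM in Ybx1-KO libraries. Ybx1-KO 1 lay below control 2 and Ybx1-KO 2 was far above all others, at a log2 fold change of 0.98 (SE 0.445) and levels of 18.0 ± 4.6 and 37.5 ± 13.3 FPKM (SD, n = 3). An annotated pseudogene, Ccnb2-ps, held 109, 117 and 132 counts in control and 21, 22 and 26 in Ybx1-KO libraries, so reads could have been divided between the copies. These raw counts are not scaled to depth, which was less in every Ybx1-KO library, and no difference is read from them.

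Ccnb1, the main B-type cyclin of entry, had a log2 fold change of 0.17, and Cdk1, its kinase, 0.61. Plk1, the polo kinase, had 1.02 (standard error 0.498), with 78.7 CPM in Ybx1-KO 2 but 17.0 CPM in Ybx1-KO 1, within the control range of 13.6 to 27.2 CPM. Cdc25c, a later-acting Cdk1 phosphatase, had 0.78, with only Ybx1-KO 2 (10.7 CPM) below the highest control (10.9 CPM). Nek2, a centrosome kinase, was at 1.15, 1.22 and 1.07 CPM in control and at 1.47, 1.66 and 3.27 CPM in Ybx1-KO libraries. It was separated too, but on 13 to 26 counts a library, below the filter, and with 74.2% of its level in Ybx1-KO 3 matched by the receptor genes.

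**Figure D2:**
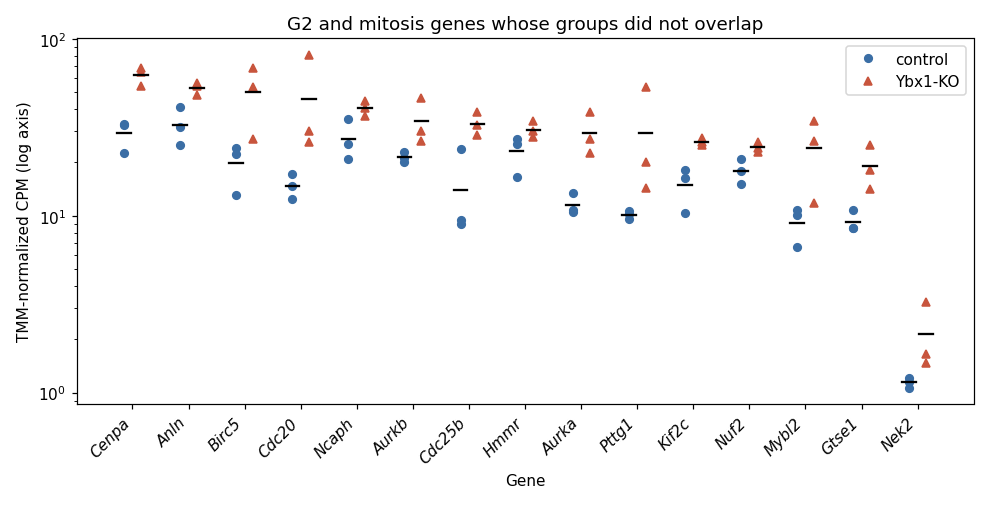
TMM-normalized CPM (log axis) of the 14 tested genes, and of Nek2, for which the Ybx1-KO libraries (triangles) all exceeded the control libraries (circles); bars mark the mean of 3 libraries. Cdc20 and Pttg1 show the widest spread in Ybx1-KO, and Kif2c and Nuf2 a narrow one.

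The transcription factors of the G2 and mitosis program were both higher in mean level. Mybl2 encodes B-Myb, which joins MuvB to activate mitotic genes. It was at 6.62, 10.7 and 10.1 CPM in control and at 34.2, 26.6 and 11.8 CPM in Ybx1-KO libraries. Ybx1-KO 3 lay just above control 2, and the log2 difference was 1.41 (SE 0.470, edgeR's adjusted p = 0.406). The density of the receptor genes equalled 21.1% of the FPKM of Mybl2 in Ybx1-KO 3, so the order of these libraries is uncertain. Foxm1, the forkhead factor that acts after B-Myb, was at 23.9, 44.5 and 34.2 CPM in control and at 103, 64.9 and 41.5 CPM in Ybx1-KO libraries. Ybx1-KO 3 fell below control 2 and the others lay above all controls (log2 fold change 1.03, standard error 0.418). For both genes Ybx1-KO 1 was the highest library and Ybx1-KO 3 the lowest of its group. Foxm1 shares 144 bases of exon with Tex52 and 97 with Gm44596, both on its own strand.

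At centromeres and kinetochores the genes divided. Cenpa, the histone H3 variant that marks centromeres, was at 22.6, 32.7 and 33.0 CPM in control and at 64.9, 54.2 and 68.2 CPM in Ybx1-KO libraries. The groups were apart and their spread was small, with 29.4 ± 5.89 CPM in control and 62.4 ± 7.30 CPM in Ybx1-KO (SD, n = 3) and a log2 fold change of 1.08 (SE 0.366, edgeR's adjusted p = 0.406). Birc5 encodes survivin, a passenger complex subunit. It was at 24.2, 13.01 and 22.5 CPM in control and at 68.4, 27.2 and 53.6 CPM in Ybx1-KO libraries, with the lowest Ybx1-KO library just above the highest control (log2 fold change 1.32 ± 0.425 SE, edgeR's adjusted p = 0.393). With total counts its groups overlapped.

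Nuf2, a subunit of the NDC80 complex that grips microtubules, was at 17.8, 15.2 and 21.03 CPM in control and at 24.3, 23.0 and 26.1 CPM in Ybx1-KO libraries. The groups were separated by a small step, at a log2 fold change of 0.44 (SE 0.377), and overlapped with total counts. Its partner Ndc80 had -0.09. Cenpf and Hjurp, the latter the chaperone that loads Cenpa, had 0.25 and 0.32, and the kinetochore motor Cenpe had -0.10. For Cenpf, control 2 (152 CPM) exceeded all Ybx1-KO libraries (100 to 106 CPM).

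The log2 fold changes of the 6 spindle checkpoint genes had a median of 0.22, from -0.19 for the kinase Ttk to 0.66 for Bub3, with 0.60 for Mad2l1, 0.38 for Bub1b, 0.05 for the kinase Bub1 and -0.02 for Kntc1. Bub1 and Kntc1 were lowest in Ybx1-KO 1, at 10.4 and 12.7 CPM, while Bub3 was highest there, at 145 CPM against 53.7 to 68.7 CPM in control. The summed CPM of the 6 genes was 186, 205 and 187 in control and 266, 222 and 262 in Ybx1-KO, without overlap under TMM. This order depends on the scaling, with TMM factors of 0.727 in Ybx1-KO 2 and 1.57 in Ybx1-KO 3. Singly, 0 of the 6 genes were separated.

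**Figure D3:**
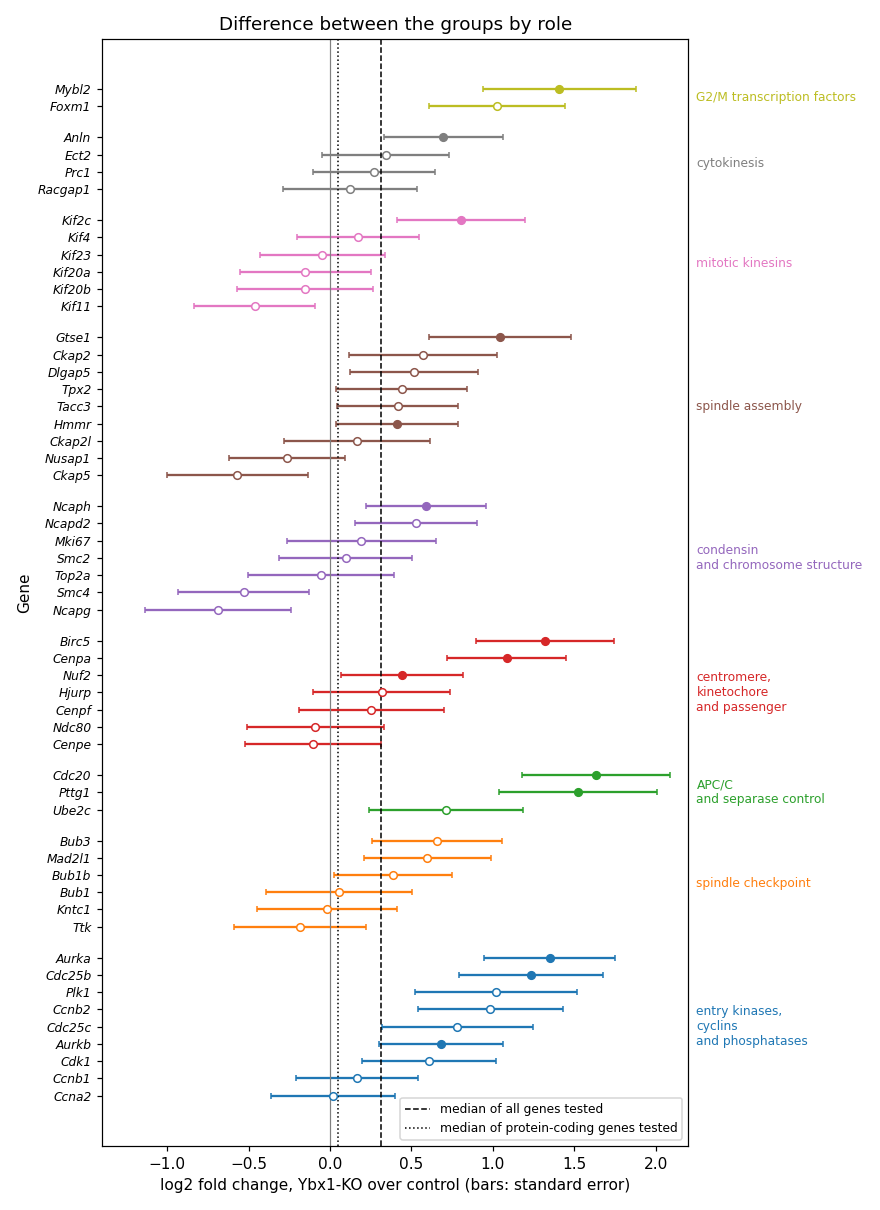
log2 fold change of the 53 tested genes (x axis, Ybx1-KO over control, bars give the standard error) by role (y axis); filled points are the 14 genes without overlap between groups. The dashed line is the median of all genes tested (0.31) and the dotted line that of protein-coding genes (0.05). All genes of entry, APC/C control, cytokinesis and the transcription factors lie right of 0, and most kinesins left of it. Among these genes Ccna2, Ccnb1, Racgap1, Kif4, Kif20a, Kif20b and Kif23 turned sign in other settings, and no direction is read from them.

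Chromosome structure genes, which hold the most abundant transcripts of the list by CPM, were higher and lower in similar number (4 and 3 of 7). Ncaph, the kleisin of condensin I, was at 20.9, 35.0 and 25.2 CPM in control and at 40.7, 36.4 and 44.8 CPM in Ybx1-KO libraries. Ybx1-KO 2 lay just above control 2, at a log2 fold change of 0.59 (SE 0.369), and the groups overlapped with total counts. Its partner Ncapd2 had 0.53, but Ncapg had -0.69 (standard error 0.449), the lowest value of the 53 genes, and the core ATPases Smc4 and Smc2 had -0.53 and 0.10. Ncapg shares 699 bases of exon on the opposite strand with Lcorl, whose log2 fold change was -0.80.

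Top2a, the topoisomerase that untangles sister chromatids, was at 174, 352 and 187 CPM in control and 170, 285 and 230 CPM in Ybx1-KO libraries, and Mki67, which coats mitotic chromosomes and is the usual marker of cycling cells, was at 200, 349 and 153 CPM and at 214, 362 and 226 CPM. Both had control 2 and Ybx1-KO 2 as their highest libraries. Their log2 fold changes were -0.06 and 0.19, with standard errors of 0.448 and 0.460.

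Of 9 spindle assembly genes 7 were higher, and the median on the log2 scale was 0.41. Gtse1, a microtubule-tip protein that also restrains p53 in G2, was at 8.54, 10.7 and 8.53 CPM in control and at 18.1, 24.9 and 14.2 CPM in Ybx1-KO libraries. The groups did not overlap, and the log2 fold change was 1.04 (standard error 0.437). Hmmr, which acts with Tpx2 at spindle poles, was at 25.5, 27.1 and 16.6 CPM in control and at 34.1, 29.9 and 28.0 CPM in Ybx1-KO libraries. Its step was narrow, with Ybx1-KO 3 just above control 2 and a log2 fold change of 0.41 (standard error 0.376), and it was lost with total counts. The density of the receptor genes equalled 10.4% of the FPKM of Hmmr in Ybx1-KO 3, so this step is uncertain with TMM too.

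Of the others, Tpx2, the activator of Aurka, had 0.44, Tacc3 0.41, Dlgap5 0.52 and Ckap2l 0.17. Ckap2 had 0.57, with 57.7 CPM in Ybx1-KO 1, while the remaining Ybx1-KO libraries, at 20.9 and 18.2 CPM, were within the control range of 17.2 to 25.6 CPM. Nusap1 had -0.26 and Ckap5, the microtubule polymerase, -0.57 (standard error 0.432), at 226, 283 and 130 CPM in control and 145, 173 and 114 CPM in Ybx1-KO libraries.

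Mitotic kinesins were the role with the lowest median, -0.10 with TMM, which turned to 0.01 with DESeq2's size factors and 0.21 with total counts. Kif2c, the depolymerase that corrects attachments at centromeres, differed from the rest of its role. It was at 10.4, 16.3 and 18.2 CPM in control and at 25.2, 27.3 and 26.0 CPM in Ybx1-KO libraries, with no overlap and a log2 fold change of 0.81 (standard error 0.394). Kif11, the motor that pushes spindle poles apart, was at 32.2, 37.5 and 23.5 CPM in control and at 22.2, 21.7 and 23.7 CPM in Ybx1-KO libraries, a narrow Ybx1-KO range that control 3 just entered. Its log2 fold change was -0.46 (standard error 0.372). The midzone motors Kif4, Kif23, Kif20a and Kif20b had 0.17, -0.05, -0.15 and -0.16, less than their standard errors of 0.375 to 0.419.

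Of the cytokinesis genes, Anln, the anillin of the contractile ring, was at 31.7, 41.0 and 25.2 CPM in control and at 48.3, 56.1 and 54.1 CPM in Ybx1-KO libraries. The groups were separated, at a log2 fold change of 0.69 (SE 0.365) and 32.6 ± 7.94 CPM in control and 52.8 ± 4.05 CPM in Ybx1-KO (SD, n = 3). Ect2, which activates RhoA at the cleavage site, Racgap1, its partner at the midzone, and Prc1, which bundles midzone microtubules, had 0.34, 0.12 and 0.27.

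Log2 fold changes were also set beside the promoter elements. The 34 tested genes with a cell cycle homology region had log2 fold changes with a median of 0.29, 7 of them separated between the groups, and the 11 without it had 0.59, with 6 separated. The highest value was 1.63 (Cdc20) among genes with the region and 1.52 (Pttg1) among those without it. Pttg1 was placed there by an entry whose start lies inside the annotated gene. For the CCAAT box the values were 0.27 with 6 of 33 and 0.59 with 7 of 12. These are counts over a list, given without a test.

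The differences went with exon length. Over the 53 genes, the Spearman correlation of log2 fold change with the summed length of annotated exons was -0.495, as a description across genes that share the same 6 libraries. It was -0.428 over all genes tested and -0.322 over protein-coding genes. The 26 genes shorter than the median of 5210 bases had 0.64 as the median on the log2 scale, with 23 higher (88.5%) and 10 separated upwards (38.5%). The 27 others had 0.19, with 17 higher (63.0%) and 4 separated upwards (14.8%). Protein-coding genes within the same length range had a median of 0.15 below that length, with 57.6% higher and 6.34% separated upwards. At or above it they had -0.12, with 41.3% higher and 4.58% separated upwards, so that at either length the median of the G2 and mitosis genes was the higher. With a trend of level on exon length taken out in each library, a fit chosen after seeing the data, the correlation was -0.366 over the 53 genes and their median 0.51, with 46 of 53 higher and 0 called. Without Ybx1-KO 3 the correlation was -0.545 and the median 0.42, while the median of all genes tested then was 0.01.

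**Figure D4:**
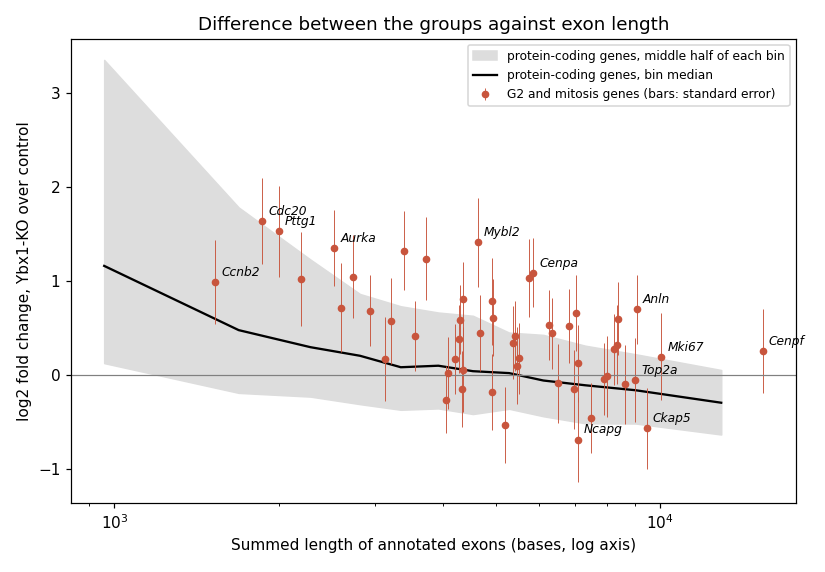
log2 fold change (y axis, bars give the standard error) against summed exon length in bases (x axis, log scale) for the 53 tested G2 and mitosis genes (points). The line is the median and the grey band the interquartile range of protein-coding genes, in bins of exon length; short genes such as Cdc20 and Pttg1 lie highest and long genes such as Ckap5 lie low, along the slope of the line.

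Summed over the 54 genes, the level was 2202, 3306 and 2182 CPM in control and 2926, 3438 and 2814 CPM in Ybx1-KO libraries. The mean was 1.19 times that of control, 3059 ± 332 against 2563 ± 643 CPM (SD, n = 3), with control 2 above Ybx1-KO 1 and 3. For a list of 42 S phase and replication genes the sums were 1269, 1572 and 1487 CPM in control and 1914, 2061 and 1770 CPM in Ybx1-KO, without overlap. Relative to that sum, the G2 and mitosis genes stood at 1.74, 2.10 and 1.47 in control and at 1.53, 1.67 and 1.59 in Ybx1-KO, so the ratio of the 2 lists overlapped between the groups.

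Markers of other cell types varied between the same libraries, and their part in the sums was not tested. Of 10 neural progenitor markers, all with counts in each library, the sums were 1614, 1489 and 1656 CPM in control and 1916, 1480 and 1166 CPM in Ybx1-KO. Singly, 7 of these 10 had higher and 3 lower means in Ybx1-KO. The 10 neuron markers had larger sums despite the sort for Sox2, 3292, 4878 and 3624 CPM in control and 3664, 3325 and 1381 CPM in Ybx1-KO, lowest in Ybx1-KO 3, and 8 of 10 had lower means in Ybx1-KO. The 8 mesenchyme and meninges markers summed to 864, 129 and 218 CPM in control and to 108, 139 and 67.9 CPM in Ybx1-KO, and 7 of the 7 tested had lower means. The 8 erythroid markers summed to 1218, 968 and 523 CPM in control and to 1182, 472 and 194 CPM in Ybx1-KO, and 3 had higher and 5 lower means.

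**Figure D5:**
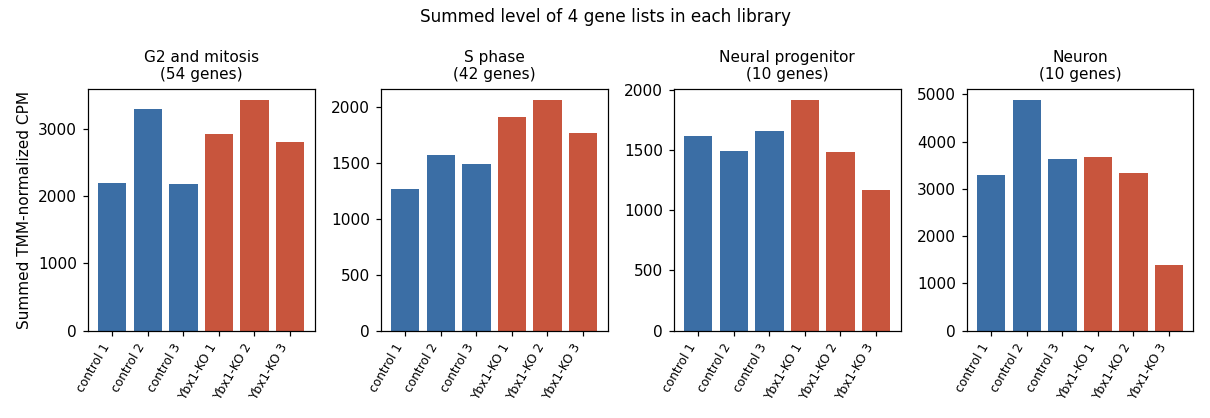
Summed TMM-normalized CPM (y axis, from 0) of the 54 G2 and mitosis genes, 42 S phase genes, 10 neural progenitor markers and 10 neuron markers in each library (bars, blue for control and red for Ybx1-KO). The S phase sums do not overlap between groups, and the other lists do, with control 2 as the control nearest to Ybx1-KO for the G2 and mitosis genes.

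The rest of the pathway was examined with 117 other genes of G2 and mitosis, all of which passed the filter. Of these, 72 had higher and 45 lower means, and the median on the log2 scale was 0.19. Over all genes tested, 13069 had higher and 8257 lower means, and the median was 0.31, above that of the 117. Over protein-coding genes 7243 were higher and 6450 lower, with a median of 0.05. In edgeR's test 0 of the 117 were called. Limma-voom called 0 as well. DESeq2 called 3 (Cdca8, Ska1 and Espl1) beside 1.29% of all genes, and without Ybx1-KO 2 edgeR's test called 8 beside 3.89%. An unadjusted p under 0.05 was reached by 15 higher and 2 lower genes. The groups were separated upwards for 20 of 117 (17.1%), against 4.99% of all genes tested, and downwards for 8 (6.84%), which is not above the 8.15% of all genes. Among the 20 is Haus5, which passed the filter only through the group where it was higher. The 31 passenger and kinetochore genes had a median of 0.37, with 10 separated upwards (32.3%) and 1 downwards (3.23%). The 21 checkpoint and APC/C genes had 0.34, with 5 separated upwards (23.8%) and 3 downwards (14.3%). In contrast, 10 of 13 cohesin and condensin II genes were lower, with a median of -0.50, and sums of 1568, 1762 and 969 CPM in control against 1031, 1124 and 851 CPM in Ybx1-KO. Of these 13 genes, 1 was separated upwards (7.69%) and 2 downwards (15.4%).

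The 8 other genes with the smallest unadjusted p, a choice that favours separated groups, were each separated with TMM, Trip13 and Kif14 not with total counts, and their adjusted p in edgeR's test was 0.287 or more. Ska1, a kinetochore protein that follows shortening microtubules, was at 5.80, 4.54 and 7.11 CPM in control and at 33.9, 10.6 and 21.2 CPM in Ybx1-KO libraries (log2 fold change 1.91, standard error 0.501). Espl1, the separase that Pttg1 inhibits, was at 8.11, 18.6 and 9.86 CPM in control and at 41.6, 34.9 and 29.98 CPM in Ybx1-KO libraries (1.54, standard error 0.421). The passenger subunits Cdca8 and Incenp had log2 fold changes of 1.27 and 1.04, beside 1.32 for Birc5 and 0.68 for Aurkb, and together these 4 genes encode the chromosomal passenger complex. All 4 were separated with TMM, but Birc5 was not with total counts, and Cdca8 and Incenp are named here for their small p. The augmin subunit Haus5 had 1.89, the kinetochore protein Pmf1 1.29, the checkpoint ATPase Trip13 1.18 and the cytokinesis motor Kif14 1.16. Haus5 passed the filter only through the Ybx1-KO group, with means of 0.847 FPKM in control and 3.83 FPKM in Ybx1-KO. The density of the receptor genes equalled 14.7% of its FPKM in Ybx1-KO 3, so its separation is uncertain.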

How the data were processed

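The authors mapped stranded paired-end reads, counted pairs on GENCODE genes with HTSeq 0.6.1p1 and deposited raw counts per gene symbol for each library. The RNA aligner and strand setting are not given in the sources used here. Exons of 18 of the 54 genes overlap those of another annotated gene, for 4 on the same strand (Ncapd2, Top2a, Ckap5 and Foxm1). Counts of these genes are uncertain, and only some of the overlaps are named above. Rows of the counter's own tallies were kept out of library sizes and tests. The 54 genes and all lists were chosen with earlier results of these data known. Exon lengths came from GENCODE M21 (GRCm38), with 47624 of 51733 symbols matched directly and 359 by an older symbol. Genes whose mean FPKM exceeded 1 in at least 1 group were tested with edgeR 4.0.16 (TMM, quasi-likelihood test, Benjamini-Hochberg adjustment) in R 4.3.3, without covariates. The common biological coefficient of variation was 0.800. Library sizes were totals over the genes tested, chosen after a first run with totals over all genes. Libraries of a group were not copies of each other (chi-square over degrees of freedom of 55.6 or more). Control 1 and 2 share a number in their titles, as do Ybx1-KO 1 and 2, and all libraries were treated as independent, so p-values cover the spread between these samples only. The limit of 3 counts covers counting error only. All 54 genes and the 8 other genes with the smallest p are named, in full where the groups do not overlap or for the 3 highest per kilobase. Alternatives were limma-voom 3.58.1, DESeq2 1.42.0, 2 other scalings, 2 other filters, protein-coding genes alone and leaving out each library. The fitting code was tested on simulated data.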

Additional observations from a re-analysis of the deposited data

How the results depend on the processing

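Across 7 alternatives set out for all libraries, 6 that leave out 1 library each and 4 added after seeing the data (background subtracted per exon length, an exon length offset, library sizes over all genes, and the last with Ybx1-KO 2 left out), the median log2 fold change of the G2 and mitosis genes was positive throughout, but in 5 of the 17 it was below that of all genes tested. With total counts it was 0.62 and that of all genes tested 0.53. With no filter it was 0.30 against 0.70. Leaving out 1 library gave 0.25 (without control 1, all genes 0.31) to 0.59 (without control 2, all genes 0.33), with 0.33 against 0.38 without Ybx1-KO 1 and 0.41 against 0.67 without Ybx1-KO 2. Leaving out Ybx1-KO 2 with library sizes over all genes gave 0.21 (all genes 0.47), against 0.41 with totals over the genes tested, and the cause was not tested. Genes of the list were called in 3 settings. DESeq2 called 2 of them (Aurka, adjusted p = 0.0351, and Cenpa, 0.0389) among 214 genes in all (1.29%). Without Ybx1-KO 2, edgeR's test called 5 (Aurka, Cdc20, Pttg1, Cenpa and Birc5, adjusted p from 0.000783 to 0.0450), so that the number ran from 0 to 5 over the libraries left out and that of all genes called from 0 to 946 (3.89%, without Ybx1-KO 2). With library sizes over all genes that fit called 3 (Cdc20, Pttg1 and Birc5), where 725 of all 24342 genes tested were called. Over all genes, 697 of 24297 were called without Ybx1-KO 1, 73 of 21503 without control 2 and 193 of 42828 with no filter, 0 of them from the list.
Of the 53 genes, 30 were higher and 5 lower in every setting, and all 14 separated genes kept their sign, while 18 genes turned in 77 of 901 values. None of the 18 exceeded 0.57 in size. With limma-voom the value was -0.13 for Bub1. With no filter the value was -0.12 for Ccna2, -0.092 for Bub1 and -0.0072 for Smc2. With DESeq2 the value was 0.11 for Kntc1, 0.0089 for Cenpe, 0.021 for Ndc80, 0.039 for Top2a and 0.062 for Kif23. With DESeq2's size factors in edgeR the value was 0.11 for Kntc1, 0.0088 for Cenpe, 0.022 for Ndc80, 0.039 for Top2a and 0.062 for Kif23. With total counts the value was 0.11 for Ttk, 0.32 for Kntc1, 0.18 for Cenpe, 0.20 for Ndc80, 0.16 for Top2a, 0.17 for Kif20b and 0.24 for Kif23. With CPM above 1 in at least 3 libraries as the filter the value was 0.091 for Kntc1, 0.00051 for Cenpe, 0.013 for Ndc80, 0.037 for Top2a and 0.054 for Kif23. On protein-coding genes alone the value was 0.12 for Kntc1, 0.021 for Cenpe, 0.035 for Ndc80, 0.048 for Top2a and 0.076 for Kif23. With the background subtracted the value was 0.0077 for Kntc1 and 0.012 for Top2a. With the exon length offset the value was 0.18 for Kntc1, 0.14 for Cenpe, 0.054 for Ndc80, 0.16 for Top2a, 0.023 for Kif20b and 0.12 for Kif23. Without Ybx1-KO 2 and with library sizes over all genes the value was -0.13 for Ccna2, -0.066 for Ccnb1, -0.45 for Bub1, -0.16 for Mki67, -0.49 for Ckap2l, -0.024 for Kif4 and -0.14 for Racgap1. Leaving out 1 library gave -0.12 to 0.11 for Ccna2, -0.18 to 0.37 for Bub1, -0.38 to 0.23 for Kntc1, -0.39 to 0.28 for Cenpe, -0.029 to 0.94 for Cenpf, -0.30 to 0.12 for Ndc80, -0.21 to 0.36 for Smc2, -0.24 to 0.35 for Top2a, -0.035 to 0.61 for Mki67, -0.22 to 0.89 for Ckap2, -0.29 to 0.39 for Ckap2l, -0.46 to 0.055 for Kif20a, -0.46 to 0.058 for Kif20b, -0.27 to 0.13 for Kif23 and -0.10 to 0.53 for Racgap1.
Depth was least in Ybx1-KO 3, where the 54 genes held 23 to 1622 counts each, against 24 to 4716 in control 1.
No paired analysis was possible because the replicate numbers do not join a control to a Ybx1-KO library.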
